A study of Mus musculus with 6 samples.

Results

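The genes described here encode 10 proteins that the liver and the yolk sac secrete into the plasma. They are *Afp*, *Alb*, *Ttr*, *Trf*, *Ahsg*, *Apoh*, *Ambp*, *Fgb*, *Fgg* and *Vtn*. Every probe that the platform annotation names with one of these symbols was taken, which gave 10 probes, 1 for each gene, among 33012 probes and 13840 named genes. RNA came from the distal portion of the midgut of mouse embryos at E13.5, from 3 *Id2*-/- samples and 3 samples of *Id2*+/+ littermates, with 1 single-color array for each sample. The methods name a pure inbred and a mixed genetic background for the *Id2* mutant mice, and which of them gave these embryos is not stated. Whether embryos were pooled is not stated, and the p-values cover only the spread among these 6 samples, which may be partly technical. *Id2* itself was not analysed here, and the genotypes are those of the labels.

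Plasma proteins are made early in development by the visceral endoderm of the yolk sac, which surrounds the embryo and feeds it, and then by the hepatocytes of the fetal liver. The genes for them are read by factors that the liver shares with the gut endoderm, such as those of the HNF1, HNF4 and forkhead families. The fetal gut epithelium itself is known to make small amounts of alpha-fetoprotein, whose gene is shut down after birth. Id2 is a helix-loop-helix protein without a DNA-binding domain that holds E proteins in inactive dimers. The comparison addressed which of these genes had a measurable RNA signal in the midgut and whether that signal differed in *Id2*-/- embryos.

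Levels are signals divided by the median signal of the array, so that a level of 1 is the median of the array, and a probe is called above background where its signal-to-noise value was at least 3 and it was not flagged. Between 13890 and 16539 probes were above background on an array. Of the named genes, 6541 (47.3%) were above background on all 6 arrays by some probe and 3284 (23.7%) on none. Markers of the labelled tissue were present: 22 of 27 genes of the gut mesenchyme and 21 of 23 pan-epithelial genes with a probe were above background on all 6 arrays. Of 24 genes of the intestinal epithelium with a probe, 11 were above background on all 6 arrays and 5 on none. *Cdx2*, *Cdh17* and *Vil1* of the intestinal epithelium were above it on all 6. The array numbered 1 of each genotype stood apart from the rest. Across tested probes the log2 levels of these arrays correlated at r = 0.984 with each other, at 0.909 to 0.931 with the other 4 arrays, and the other 4 at 0.979 to 0.988 among themselves. The values below are therefore also given within pairs of same-numbered arrays and without the arrays numbered 1.

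The midgut held a clear signal for 4 of the 10 genes. *Afp*, *Ttr* and *Trf* were above background on all 6 arrays, and *Ambp* on 2 *Id2*-/- and 3 *Id2*+/+ arrays. *Alb* and *Vtn* were at the edge of detection, and *Ahsg*, *Apoh*, *Fgb* and *Fgg* were above background on no array. None of the member values carried a quality flag of 5000 or more. The order of the genes in the plot of signal-to-noise values is that of their detection and does not compare levels between probes, since probes differ in how brightly they bind.

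**Figure D1:**
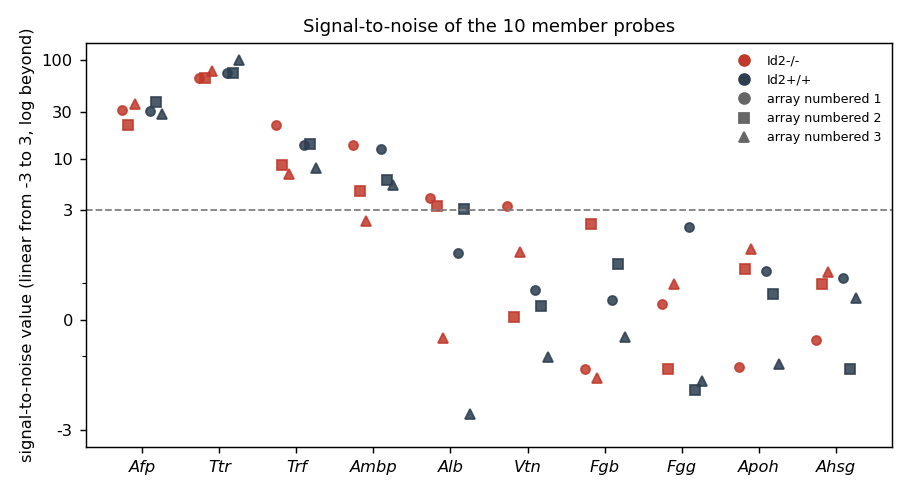
Signal-to-noise value (vertical axis, no unit, linear between -3 and 3 and logarithmic beyond) of the 10 member probes on the 3 *Id2*-/- arrays (red) and the 3 *Id2*+/+ arrays (dark blue), with symbols for the array number and a dashed line at 3. All points of *Afp*, *Ttr* and *Trf* lie above the line, and all points of *Fgb*, *Fgg*, *Apoh* and *Ahsg* lie below it.

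The start regions of *Afp*, *Alb* and *Fgb* are shown because each holds a sequence of liver promoters close to the start and yet the genes differed in detection here. Promoter windows of 300 bases around the annotated start were matched in the RefSeq table (GRCm38.p6) for 8 of the 10 genes, all but *Trf* and *Ttr*. The half-site of the HNF1 factors, searched on both strands as GTTAAT, is in capitals in the windows below, which run 5′ to 3′ along the strand of the gene. These are *Afp* at chr5:90490464-90490763 on the plus strand, *Alb* at chr5:90460620-90460919 on the plus strand and *Fgb* at chr3:83049814-83050113 on the minus strand.
Afp: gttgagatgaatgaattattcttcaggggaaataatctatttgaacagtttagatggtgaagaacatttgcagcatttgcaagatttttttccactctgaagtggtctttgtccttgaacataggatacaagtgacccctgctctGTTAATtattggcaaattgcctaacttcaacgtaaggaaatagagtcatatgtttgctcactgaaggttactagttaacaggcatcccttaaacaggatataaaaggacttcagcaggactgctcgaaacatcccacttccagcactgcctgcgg
Alb: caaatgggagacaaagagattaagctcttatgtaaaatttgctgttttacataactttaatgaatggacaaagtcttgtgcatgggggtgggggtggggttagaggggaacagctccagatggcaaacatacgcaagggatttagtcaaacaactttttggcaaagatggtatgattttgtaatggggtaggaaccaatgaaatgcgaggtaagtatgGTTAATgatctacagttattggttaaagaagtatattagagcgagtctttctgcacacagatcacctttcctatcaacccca
Fgb: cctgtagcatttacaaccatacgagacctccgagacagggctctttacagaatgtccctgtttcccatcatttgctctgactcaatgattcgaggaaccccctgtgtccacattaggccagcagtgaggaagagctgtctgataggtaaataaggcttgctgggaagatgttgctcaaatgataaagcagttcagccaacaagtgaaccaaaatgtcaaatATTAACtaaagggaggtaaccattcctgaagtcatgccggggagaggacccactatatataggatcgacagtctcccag
The half-site was in 4 of the 8 member windows, those of *Afp*, *Alb*, *Fgb* and *Vtn*, and in 7.10% of all 32851 windows. It began 105 bases before the start in *Afp*, 32 before it in *Alb* and 29 before it in *Fgb*. The HNF4 motif CAAAGTC was in the windows of *Alb*, *Ahsg* and *Vtn* and in 4.44% of all, and the forkhead motif TNTTTAC in those of *Apoh* and *Fgb* and in 12.4% of all. The intestinal CDX motif TTTATG was in 0 of the 8 windows and in 11.9% of all, and TATAAA in the windows of *Afp* and *Vtn* and in 13.6% of all. No motif searched contains another on either strand, and each match describes the letters of a window only. Windows with a half-site thus belong to a gene above background on every array (*Afp*), to 2 genes at the edge of detection (*Alb* and *Vtn*) and to one above it on no array (*Fgb*).

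*Afp* encodes alpha-fetoprotein, the main binding protein of fetal serum, and its probe was well above background everywhere, with signal-to-noise values between 21.9 and 37.8. Its levels were 13.2, 18.6 and 19.2 on the *Id2*-/- arrays numbered 1, 2 and 3, against 11.5, 39.4 and 32.6 on the *Id2*+/+ arrays. The *Id2*+/+ arrays numbered 2 and 3 were the highest of the 6, the *Id2*+/+ array numbered 1 was the lowest, and the genotypes overlapped. The level averaged 17.0 ± 3.34 in *Id2*-/- samples and 27.8 ± 14.5 in *Id2*+/+ samples (SD, n = 3 each). On the log2 scale *Afp* differed by -0.55 (standard error 0.48, 95% interval -1.68 to 0.58), with an adjusted p of 1.0 in limma. Taking the array number as a block in limma gave an unadjusted p of 0.0454 and an adjusted p of 0.686.

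*Alb* encodes albumin, the main carrier of fatty acids in the adult plasma, and lies next to *Afp* on chromosome 5, yet it gave little signal. Its levels were 1.06, 1.21 and 0.730 on the *Id2*-/- arrays and 0.745, 1.10 and 0.380 on the *Id2*+/+ arrays. It was above background on the *Id2*-/- arrays numbered 1 and 2, with signal-to-noise values of 3.96 and 3.35, and on the *Id2*+/+ array numbered 2, with a value of 3.07. The array numbered 3 was the lowest of each genotype, and the genotypes overlapped. In the RefSeq gene order the next gene on the far side of *Afp* is *Afm*, which encodes afamin, a vitamin E-binding protein of the same family. *Afm* was above background on 1 *Id2*-/- and 1 *Id2*+/+ array and was not tested. *Ankrd17*, an ankyrin repeat gene beside *Alb* that is not part of the family, was above background on all 6 arrays and differed by 0.10 on the log2 scale. In this row of neighbors *Afp* was the only one of the 3 family members with a probe above background on every array.

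*Ttr* encodes transthyretin, which carries thyroxine and, through retinol-binding protein, vitamin A. Its levels were 47.9, 62.3 and 55.3 on the *Id2*-/- arrays, against 38.5, 79.5 and 90.7 on the *Id2*+/+ arrays. As with *Afp*, the *Id2*+/+ arrays held both the highest values and the lowest one, so that the *Id2*-/- values lay between them. The averages were 55.1 ± 7.20 in *Id2*-/- and 69.6 ± 27.5 in *Id2*+/+ samples (SD, n = 3 each). The log2 difference was -0.25 (standard error 0.37, 95% interval -1.11 to 0.61) and had an adjusted p of 1.0 in limma with and without the block. Its neighbor *B4galt6*, a galactosyltransferase gene, was above background on all 6 arrays with a log2 difference of -0.00037.

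*Trf* encodes transferrin, the iron carrier of the plasma. Its levels were 5.81, 2.63 and 2.61 on the *Id2*-/- arrays and 5.58, 4.79 and 3.54 on the *Id2*+/+ arrays. Here the array numbered 1 was the highest of each genotype, and the *Id2*-/- arrays numbered 2 and 3 were the lowest of the 6. *Trf* averaged 3.69 ± 1.84 in *Id2*-/- and 4.64 ± 1.03 in *Id2*+/+ samples (SD, n = 3 each). Its log2 difference was -0.41 (standard error 0.38, 95% interval -1.31 to 0.48), with an adjusted p of 1.0 in limma.

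*Ambp* encodes a precursor that is cut into a heme-binding protein and bikunin, a protease inhibitor. Its levels were 10.2, 4.14 and 2.10 on the *Id2*-/- arrays, where the lowest one was below background with a signal-to-noise value of 2.70, and 11.3, 4.90 and 3.88 on the *Id2*+/+ arrays. The array numbered 1 of each genotype was again the highest, and each *Id2*-/- value was below that of its same-numbered *Id2*+/+ array. The averages were 5.47 ± 4.20 in *Id2*-/- and 6.70 ± 4.03 in *Id2*+/+ samples (SD, n = 3 each). The log2 difference of -0.43 (standard error 0.64, 95% interval -1.92 to 1.07) had an adjusted p of 1.0 in limma. It came to -1.02 without the *Id2*-/- array numbered 1, to 0.12 without the *Id2*-/- array numbered 3 and to 0.03 without the *Id2*+/+ array numbered 1, so its sign rests on single arrays.

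**Figure D2:**
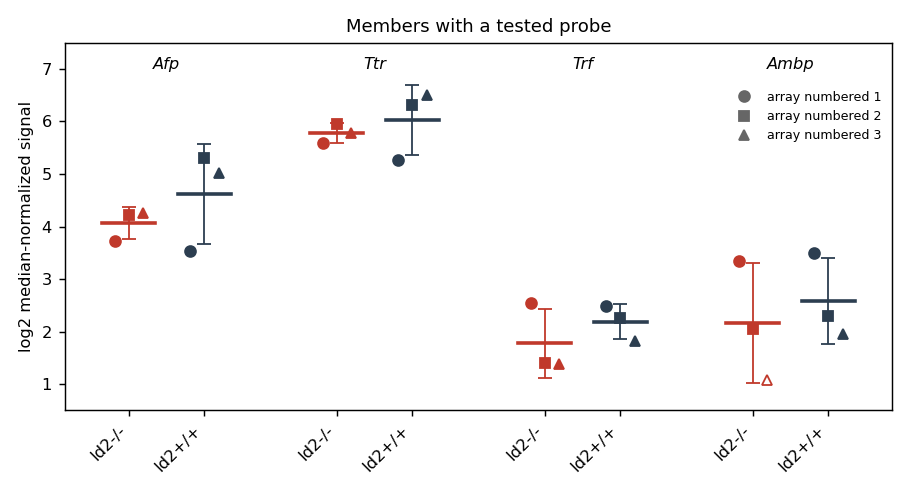
Log2 median-normalized signal (vertical axis) of *Afp*, *Ttr*, *Trf* and *Ambp* on the *Id2*-/- (red) and *Id2*+/+ (dark blue) arrays, with a symbol for each array number, horizontal lines for the mean of 3 arrays, error bars for the SD and an open symbol for the value below background. The circles of the arrays numbered 1 are the lowest of their genotype for *Afp* and *Ttr* and the highest for *Trf* and *Ambp*.

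The genes for clotting and adhesion proteins had no signal that could be compared. *Fgb* and *Fgg* encode the beta and gamma chains of fibrinogen, the clot-forming protein, and together with *Fga*, the gene of the alpha chain, they form a cluster on chromosome 3. The levels of *Fgb* were 0.260, 0.631 and 0.639 on the *Id2*-/- arrays and 0.376, 0.356 and 0.304 on the *Id2*+/+ arrays, and its highest signal-to-noise value was 2.63. The levels of *Fgg* were 0.248, 0.169 and 0.498 on the *Id2*-/- arrays and 1.17, 0.284 and 0.418 on the *Id2*+/+ arrays, and its highest signal-to-noise value was 2.54. All 3 chains were thus below background on every array, with a highest value of 0.32 for *Fga*, while *Plrg1*, the splicing factor gene next to *Fgb*, was above background on all 6. *Vtn* encodes vitronectin, an adhesion protein of plasma and matrix. Its levels of 2.08, 0.872 and 0.872 on the *Id2*-/- arrays were each above those of 0.390, 0.785 and 0.633 on the *Id2*+/+ arrays. Only the *Id2*-/- array numbered 1 was above background for *Vtn*, and the same separation held for 2.71% of the 32189 probes without a flag, so the gene was not tested.

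*Apoh* and *Ahsg* were below background on all 6 arrays as well. *Apoh* encodes a plasma protein that binds anionic phospholipids, and its levels were 0.395, 0.352 and 0.684 on the *Id2*-/- arrays and 0.964, 0.199 and 0.257 on the *Id2*+/+ arrays. *Ahsg* encodes fetuin-A, an abundant mineral-binding protein of fetal plasma. Its levels were 0.354, 0.699 and 0.490 on the *Id2*-/- arrays and 0.244, 0.579 and 0.483 on the *Id2*+/+ arrays. The genotypes overlapped for both genes, whose highest signal-to-noise values were 1.94 and 1.31. The next 2 genes in the RefSeq order after *Ahsg*, *Fetub* and *Hrg*, which encode related plasma proteins, were also above background on no array. A signal below background bounds the level from above only and does not show that the RNA was absent.

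The mean log2 levels of *Afp*, *Ttr* and *Trf*, which were above background on every array, were lower in *Id2*-/- samples, but none of the 3 passed the test. That of *Ambp* was lower and did not pass either, and as it was tested only through the *Id2*+/+ arrays, its sign is partly set by the filter. Limma with Benjamini-Hochberg adjustment called 0 of the 4, and 0 of the 12741 tested probes (0%), against 234 probes at an unadjusted p under 0.05. With the array number as a replicate block it called 135 probes higher (1.06%) and 143 lower (1.12%), and again 0 of the 4 genes. With the block all probes shared one standard error of 0.27, because the prior degrees of freedom became infinite, and quantile normalization together with the block called 0 probes. The median log2 difference was -0.42 for the 4 genes and -0.41 for the 3 without *Ambp*, against 0.04 over all tested probes. Every *Id2*-/- array lay below every *Id2*+/+ array for 0 of the 4 genes and for 1.29% of the tested probes. In a bulk sample, fewer cells that express a gene and less RNA in each cell cannot be told apart.

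Before the pairs were centered, the lower levels of *Afp*, *Ttr* and *Trf* came from the arrays numbered 2 and 3. The log2 difference of *Afp* was 0.19 between the arrays numbered 1, -1.08 between those numbered 2 and -0.76 between those numbered 3. In the same order *Ttr* differed by 0.31, -0.35 and -0.71, and *Trf* by 0.06, -0.86 and -0.44. *Afp*, *Ttr* and *Trf* were thus each negative in the pairs numbered 2 and 3 and positive in the pair numbered 1. *Ambp*, whose sign the filter partly sets, was at -0.15, -0.24 and -0.89. The pairs also differed over all tested probes, whose median was 0.35, -0.04 and -0.19. Less these medians, the values were -0.15, -1.04 and -0.57 for *Afp* and -0.03, -0.31 and -0.52 for *Ttr*. They were -0.29, -0.82 and -0.24 for *Trf* and -0.50, -0.20 and -0.69 for *Ambp*, so that each gene was negative in all 3 pairs. Centering makes about as many tested probes negative as positive in each pair. The share of all tested probes that were negative in all 3 pairs was not computed, so no conclusion is drawn from these signs.

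Without the arrays numbered 1, a choice made after the values were seen, the differences were larger but still did not pass. They were -0.92 for *Afp* (adjusted p = 0.148 from limma), -0.53 for *Ttr* (adjusted p = 0.280), -0.65 for *Trf* (adjusted p = 0.283) and -0.56 for *Ambp* (adjusted p = 0.548). On these 4 arrays both *Id2*-/- levels lay below both *Id2*+/+ levels for *Afp*, *Ttr* and *Trf*, that is for 3 of the 4 genes. The same held for 37.3% of all tested probes, and the smallest two-sided p that exact permutation allows is 0.333 with 2 arrays a genotype and 0.1 with 3.

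Epithelial genes differed between the pairs in the same way. The 21 measured pan-epithelial genes had median differences of 0.43, -0.45 and -0.82 in the pairs numbered 1, 2 and 3, and the 12 measured genes of the intestinal epithelium 0.23, -0.92 and -1.07. The medians of the 4 plasma protein genes were 0.12, -0.61 and -0.74. The summed level of the pan-epithelial genes, as log2, ranged from 9.85 to 10.003 on the *Id2*-/- arrays and from 9.45 to 10.7 on the *Id2*+/+ arrays. That of the intestinal genes ranged from 7.73 to 8.48 on the *Id2*-/- and from 7.31 to 9.37 on the *Id2*+/+ arrays. For both lists the *Id2*-/- range lay inside the *Id2*+/+ range, as it did for *Afp* and *Ttr*. Neither trait was particular to epithelial genes. The 22 measured genes of the gut mesenchyme had medians of 0.32, -0.06 and -0.23 in the 3 pairs. Their summed log2 level ranged from 12.2 to 12.96 on the *Id2*-/- arrays and from 11.9 to 13.1 on the *Id2*+/+ arrays. The medians of the erythroid and pancreas lists had other signs. The part that the amount of epithelium had in the lower levels was not tested.

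**Figure D3:**
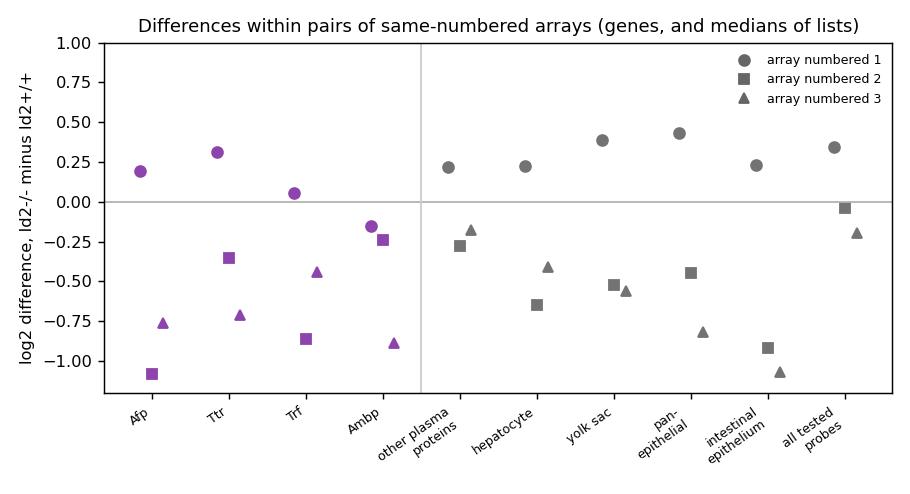
Log2 difference, *Id2*-/- minus *Id2*+/+ (vertical axis), between arrays of the same number, 1 (circles), 2 (squares) or 3 (triangles), for the 4 measured genes (purple) and as medians of gene lists and of all tested probes (gray). The squares and triangles of the 4 genes all lie below 0, and of their circles that of *Ambp* alone does.

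The 4 genes fell into pairs by how the arrays numbered 1 deviated. Relative to the mean of the other 4 arrays, the arrays numbered 1 differed on the log2 scale by -1.08 for *Afp* and by -0.72 for *Ttr*, that is, they were lower. They were higher by 0.79 for *Trf* and by 1.58 for *Ambp*. The direction was the same in both genotypes, at -0.52 in *Id2*-/- and -1.64 in *Id2*+/+ for *Afp*, and at 1.79 in *Id2*-/- and 1.38 in *Id2*+/+ for *Ambp*. Shifts of this kind were common: the quartiles over all tested probes were -0.54 and 0.50, and 21.1% of them shifted by at least 1. Across the 6 arrays the log2 levels of *Afp* and *Ttr* correlated at r = 0.947 and those of *Trf* and *Ambp* at 0.885, while the other 4 pairings had r from -0.563 to -0.261. Over the 4 arrays not numbered 1 all 6 pairings were positive, from 0.625 to 0.972. These coefficients rest on few arrays that share their number and genotype.

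Some genes followed *Afp* and *Ttr* closely. Among 7321 other genes with a tested probe, the 3 most like *Afp* over the 6 arrays were *Dyrk3*, a protein kinase gene (r = 0.996), *Hyal3*, a hyaluronidase gene (0.993), and *Pgp*, which encodes phosphoglycolate phosphatase (0.992). The 3 most like *Ttr* were *Scg3*, a secretogranin gene (0.994), *Ush1c*, which encodes the scaffold protein harmonin (0.994), and *Myl7*, a myosin light chain gene (0.994). None of the 6 is a plasma protein gene. They are the highest of many coefficients over few arrays, and a description only.

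The measured part of a wider plasma protein list was small as well. Of 79 further plasma protein genes listed, 58 had a probe, 11 of these were above background on all 6 arrays, 25 on none, and 17 were tested. Genes above background on no array included *Hp* and *Hpx*, which encode the scavengers of hemoglobin and heme. They also included *Plg* of clot breakdown, *F2* of clot formation and *Apoa2* of the lipoproteins. The median log2 difference of the 17 tested genes was -0.16, against 0.04 over all tested probes, with 6 positive and 11 negative values. It was -0.51 without the *Id2*-/- array numbered 1 and -0.02 without the *Id2*-/- array numbered 3. Of the 17 genes, 5 were tested only through the *Id2*+/+ arrays and 1 only through the *Id2*-/- arrays, where the filter favors that sign. Limma called 0 of the 17 (2 at an unadjusted p under 0.05), and with the replicate block 0 higher and 1 lower, beside 1.06% and 1.12% of all probes.

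The gene called with the block was *Clu*, which encodes clusterin, an extracellular chaperone. Its levels were 10.3, 13.1 and 10.02 on the *Id2*-/- arrays, against 16.8, 23.6 and 26.0 on the *Id2*+/+ arrays. Each *Id2*-/- array thus lay below each *Id2*+/+ array, as was the case for 1.29% of all tested probes. The log2 difference of *Clu* was -0.98 (standard error 0.27), with an adjusted p of 1.0 without and 0.0221 with the block in limma. *Rbp4* encodes the retinol-binding protein that travels in the plasma on transthyretin, and its levels were 17.0, 10.7 and 10.1 on the *Id2*-/- arrays and 19.7, 21.5 and 24.96 on the *Id2*+/+ arrays. These groups did not overlap either, and *Rbp4* differed by -0.84 (standard error 0.29, adjusted p of 1.0 without and 0.0811 with the block in limma).

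None of the remaining plasma protein genes passed, with or without the block. Not every gene tested through a single genotype is marked as such below, so other signs can also be partly set by the filter. Among the lipoprotein genes, of which *Apoc2*, *Apoc1* and *Apoa4* were tested only through the *Id2*+/+ arrays, the log2 difference was -0.69 for *Apoc2* and -0.49 for *Apoc1*, which encode small lipoprotein subunits, -0.54 for *Apoa4*, -0.49 for *Apoa1*, the main protein of high-density lipoprotein, and -0.16 for *Apoe*. *Apoa1* had levels of 12.01, 8.24 and 7.47 on the *Id2*-/- arrays and 11.3, 12.8 and 14.3 on the *Id2*+/+ arrays. Its overlap came from the *Id2*-/- array numbered 1 alone. The complement and lectin genes lay on both sides of 0, with -0.71 for *Mbl2*, -0.41 for *Cfb*, 0.17 for *Serping1* and 0.87 for *Cfi*. *Cfi*, the complement factor I gene, owed its value to the pair numbered 1, where it differed by 2.65, against -0.37 and 0.32 in the pairs numbered 2 and 3. *Pros1* of the clotting system differed by 0.10, *Ang* by 0.17, *Rarres2* by -0.02 and *Lgals3bp* by -0.13. The binding protein genes of insulin-like growth factors differed by 0.23 for *Igfbp2* and 0.24 for *Igfbp4*.

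**Figure D4:**
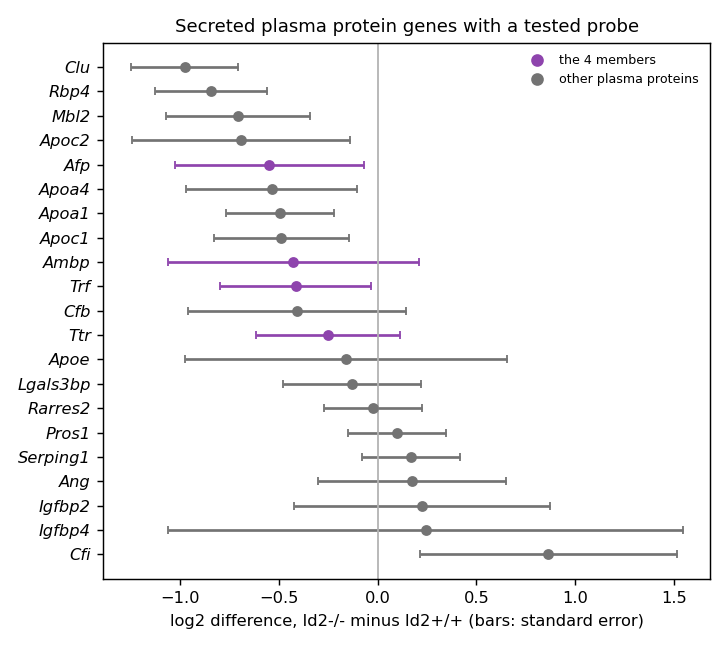
Log2 difference, *Id2*-/- minus *Id2*+/+ (horizontal axis, bars for the standard error of limma without the block), of the 4 measured genes (purple) and of 17 further plasma protein genes (gray), each in its own row. *Clu* at -0.98 and *Rbp4* at -0.84 lie farthest to the left, and the 4 genes lie between -0.55 and -0.25.

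Many further genes that define hepatocytes were below background. Of 56 listed genes for hepatocyte enzymes and factors 49 had a probe, 10 of these were above background on all 6 arrays and 20 on none. Those on none included *Tat*, *Hpd* and *Hgd* of tyrosine breakdown, *Otc* of the urea cycle, *Hamp*, the iron hormone hepcidin, and *Prox1* and *Hhex*, factors of the early liver. Other genes of the same pathways were above background on all 6 arrays. They include *Fah* of tyrosine breakdown, with signal-to-noise values of 17.6 to 47.8, and *Ass1* of the urea cycle, with 14.25 to 44.75. The summed level of the 15 tested genes, as log2, ranged from 9.76 to 9.86 on the *Id2*-/- and from 9.49 to 9.93 on the *Id2*+/+ arrays. The median of their differences came to 0.22 between the arrays numbered 1, -0.65 between those numbered 2 and -0.41 between those numbered 3. Over all arrays it was -0.09, and it was -0.59 without the *Id2*-/- array numbered 1. The yolk sac list overlaps with the others, sharing 6 of its 27 genes with another list. Of its 19 genes with a probe, 9 were above background on all 6 arrays and 1 on none, the median of the 11 tested was -0.22, and the summed log2 level ranged from 6.40 to 7.19 on the *Id2*-/- and from 6.79 to 7.23 on the *Id2*+/+ arrays. The part of hepatocyte or yolk sac RNA in the signals of *Afp* and *Ttr* was not tested.

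Of the 15 tested hepatocyte genes, limma called 0 without the block, and 5 had an unadjusted p under 0.05. Over all 12741 tested probes 234 did. With the block, limma gave 6 lower genes and 1 higher gene, beside 1.12% lower and 1.06% higher of all probes. That fit gave every probe the same standard error, and with quantile normalization added it called 0 of the 15. The paper had already reported *Kynu*, *Slc27a2*, *Fabp1* and *Foxa2* as changed on these same arrays. As the lists were chosen with earlier results known, the share called is not independent of that report, and no conclusion is drawn from it. Of the 7 called with the block, *Kynu*, *Slc27a2* and *Foxa3* were tested only through the *Id2*+/+ arrays and *Foxa2* only through the *Id2*-/- arrays, so that the filter favored their signs. *Kynu*, the kynureninase gene of tryptophan breakdown, and *Slc27a2*, a fatty acid transporter gene, were below background on every *Id2*-/- array and above it on every *Id2*+/+ array. By measured signal they were 4.18-fold and 2.48-fold lower in *Id2*-/- samples. As those signals lay below background, the sizes of these folds are uncertain. *Fabp1*, whose product carries fatty acids inside hepatocytes and enterocytes, differed by -1.61, *Cyp3a13* by -1.54, *Nr1h4*, the bile acid receptor gene, by -1.30 and *Foxa3*, a forkhead factor gene, by -0.94. The 1 higher gene, *Foxa2*, encodes another forkhead factor and was above background on each *Id2*-/- array but no *Id2*+/+ array. It was 4.26-fold higher by measured signal, a size that is uncertain for the same reason. In limma without the block the adjusted p was 0.575 for *Kynu*, 0.598 for *Foxa2* and 1.0 for the other 5 genes, and with it the largest was 0.0339, for *Foxa3*. The remaining 8 differed by -0.71 for *Adh1*, -0.09 for *Fah*, -0.03 for *Ass1*, 0.16 for *Aldh1a1*, 0.22 for *Dlk1*, 0.26 for *Cyp7a1*, 0.30 for *Onecut1* and 0.39 for *Afmid*, and none of the 8 passed limma with the block. The genes of the yolk sac list with the smallest p were *Muc13*, a mucin gene, at -2.03, *Rbp4*, and the homeobox gene *Rhox5* at 0.59. By quantitative RT-PCR of E13.5 intestine, the paper reports *Foxa2* as higher and *Muc13* and *Fabp1* as lower in *Id2*-/- embryos. The paper counts *Muc13* and *Fabp1* among genes enriched in the midgut endoderm, so a list name does not give the source of the RNA.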

How the data were processed

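Single-color Applied Biosystems mouse genome survey arrays were read, 1 for each of 3 *Id2*-/- and 3 *Id2*+/+ samples. Per the file headers, each probe of the deposited files has a scanner intensity, a signal-to-noise score, a quality flag and a normalized ratio that the authors made by dividing the intensity by the median of the array (708 to 1010.4). Background subtraction of the intensity was not given in the sources used here. In the methods, spots whose flag is under 5000 are left out. Here the reverse was done, and a flag of 5000 or more counted as bad.

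Log2 of the normalized value was fitted with limma 3.58.1 in R 4.3.3 (lmFit and eBayes), with Benjamini-Hochberg adjustment at 0.05 over 12741 probes. These were unflagged on all 6 arrays (32189 probes) and reached a score of 3 on every array of a genotype. Of the 33012 probes, 14411 have 1 gene symbol, 247 several and 18354 none. The brightest tested probe stands for its gene. Same-numbered arrays deviated together from the means of their genotypes (r = 0.838, 0.644 and 0.579) and were treated as pairs, although the labels say only that the embryos were littermates. The shared shift of the arrays numbered 1 moves these means and can by itself make the r of the other numbers positive. The r values therefore do not show that the arrays numbered 2 or 3 are pairs. The fit was tested on simulated data. The 10 genes and all lists were chosen with earlier results of these data known. Named are the 10 genes, every tested plasma protein and hepatocyte gene, up to 3 genes of other lists by smallest p, and the 3 genes most like *Afp* and *Ttr*; other names were chosen after their values were seen. Of the remaining lists, the genes with the smallest p differed, on the log2 scale, by -2.31 for *Sult1d1*, -2.29 for *Spink1* and -2.13 for *Anxa13* (intestinal epithelium, 12 tested), by -0.55 for *Krt7*, -0.94 for *Lad1* and 0.41 for *Cdcp1* (pan-epithelial, 21), by 0.42 for *Gli1*, -0.42 for *Lum* and 0.39 for *Pdgfra* (gut mesenchyme, 22, median 0.06), by 1.62 for *Clps*, 0.99 for *Pnliprp2* and 0.98 for *Pnliprp1* (pancreas, 7, median 0.34, these 3 tested only through the *Id2*-/- arrays, so that the filter favored their sign), and by 0.88 for *Hba-x*, 0.72 for *Hbb-y* and 0.72 for *Hbb-bh1* (erythroid, 5, median 0.72, which 1 array moves to 0.30). Alternatives were quantile normalization, other filters, an offset of 0.5, the replicate block, the table of the whole series, a robust prior with a trend, the methods' t-test, another probe rule and leaving out arrays. Figures were drawn with matplotlib 3.10.9. The number of arrays limits the precision.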

Additional observations from a re-analysis of the deposited data

How the results depend on the processing

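With the array number as a replicate block, 278 probes passed in place of 0, and by the methods' t-test 242 did without adjustment and 0 after Benjamini-Hochberg adjustment. The block changed no call among the 4 measured genes, and quantile normalization added to the block left 0 probes. The differences of *Afp*, *Ttr* and *Trf* stayed negative with quantile normalization, with the offset, without each array in turn and without the arrays numbered 1. The other settings change the test or the genes tested and not these values. Leaving out 1 array, *Afp* ranged from -1.10 (without the *Id2*+/+ array numbered 1) to -0.21 (without the *Id2*+/+ array numbered 2), *Ttr* from -0.63 (without the *Id2*+/+ array numbered 1) to -0.01 (without the *Id2*+/+ array numbered 3), *Trf* from -0.80 (without the *Id2*-/- array numbered 1) to -0.22 (without the *Id2*-/- array numbered 3), and *Ambp* from -1.02 (without the *Id2*-/- array numbered 1) to 0.12 (without the *Id2*-/- array numbered 3). *Ambp* was also at 0.03 without the *Id2*+/+ array numbered 1. The median of the 4 ranged from -0.59 to -0.24, and it was -0.61 without the arrays numbered 1, a choice made after the values were seen. Without 1 array, the medians ranged from -0.51 (without the *Id2*-/- array numbered 1) to -0.02 (without the *Id2*-/- array numbered 3) for the other plasma proteins, from -0.59 (without the *Id2*-/- array numbered 1) to -0.07 for the hepatocyte genes, from -0.44 to -0.08 for the yolk sac genes, from 0.30 (without the *Id2*+/+ array numbered 3) to 0.86 for the erythroid genes, which came to 0.06 with no filter and to 0.38 when the *Id2*-/- array numbered 1 was left out, and up to 0.81 (without the *Id2*+/+ array numbered 1) for the pancreas genes. The lowest pan-epithelial, intestinal and gut mesenchyme medians were -0.48, -1.34 and -0.16, all without the *Id2*+/+ array numbered 1. The highest were 0.02 and -0.25 without the *Id2*+/+ array numbered 3, and 0.17 for the mesenchyme without the *Id2*-/- array numbered 3. The signs of the pan-epithelial and mesenchyme medians thus rest on single arrays. With no filter on signal-to-noise the members' median came to 0.01 over all 10 genes, 6 of which lie mostly below background. Background correction and a slide or scan block were not run, for want of a background column and of slides or scan times in what was used here. Signals below background bound a level from above only.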
